A study of Mus musculus with 159 samples.

Results

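*Emilin1*, *Tgfbi*, *Ccdc80*, *Abi3bp*, *Sparcl1* and *Mmp2* were 6 of the 607 genes measured by spatial transcriptomics in 159 segments of 4 mouse livers. They were chosen by name, with earlier results of the same data known, as secreted matrix glycoproteins and a matrix protease. Their levels were described across the 4 segment types, the ROI classes and the livers. The values that led to the choice, the difference between ROI classes in HSC segments and the excess in HSC segments over the other types, are given below as a description without a test.

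Hepatic stellate cells (HSCs) are the pericytes of the liver sinusoid, and after injury they become the main source of fibrillar collagen and of the glycoproteins that organise it. EMILIN1 is an elastin microfibril interface protein that sits on elastic fibres and restrains the processing of TGF-β. TGFBI (transforming growth factor β induced) is a TGF-β target that binds integrins and collagen and is made by fibroblasts and by macrophages. CCDC80 and ABI3BP are secreted matrix glycoproteins made mainly by mesenchymal cells. SPARCL1 (hevin) is a matricellular relative of SPARC, and MMP2 is the gelatinase that is activated at the cell surface by MMP14 with the help of TIMP2.

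In this assay, light releases the barcodes of hybridized probes from a chosen segment of a fixed section, and sequencing counts them. Each region of interest (ROI) was split by stain into HSC (labelled Des+), MARCO+ (Marco+IBA+), MARCO- (Marco-IBA+) and Other (Else, negative for all stains) segments, and ROIs had been selected as MARCOHi or MARCOLo. There were 41 HSC segments (25 in MARCOHi and 16 in MARCOLo ROIs), 45 MARCO+ segments (26 and 19), 24 MARCO- segments (11 and 13) and 49 Other segments (28 and 21). By the study's methods, all mice were young adult C57BL/6 animals given repeated CCl4, a hepatotoxin that causes fibrosis, and some received MARCO+ bone marrow-derived macrophages and the rest saline. The sample descriptions instead mark livers 1 and 3 as treated CCl4 and livers 2 and 4 as control, and do not say which livers received cells. The pairs are therefore called here by their labels, and neither is assigned to the transfer. A liver is 1 replicate, and the segments of a liver are not.

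The depth, as the sum of recovered counts per segment, was 1448 to 16715 in HSC, 3106 to 27341 in MARCO+, 1065 to 4457 in MARCO- and 75571 to 448875 in Other segments. The values had a floor of 1 recovered count and none was listed at 0, and that count was worth up to 8.69 normalized counts in an HSC segment and up to 13.0 in a MARCO- segment. *Marco*, the gene of the sorting stain, had a log2 level of 8.43 ± 1.31 (SD, n = 4 livers) in MARCO+ segments against 3.77 to 4.55 in the other types. Of 8 stellate cell markers, 7 were highest in HSC segments, and the exception was *Des* itself, at 3.14 ± 0.28 in HSC and 3.60 ± 0.34 in MARCO- segments. The gene set was reduced by the authors to genes of HSCs, so that 0 listed markers of endothelial cells, hepatocytes, cholangiocytes and mesothelial cells and 1 of 11 of macrophages (*Marco*) were analysed here.

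All 6 genes had an entry in RefSeq (GRCm38.p6, the mm10 build that the labels name). *Emilin1* lies at chr5:30913387-30921279, *Sparcl1* at chr5:104079108-104114088, *Mmp2* at chr8:92827290-92853421, *Tgfbi* at chr13:56609586-56639359, *Ccdc80* at chr16:45093407-45127924 and *Abi3bp* at chr16:56477801-56690135. Promoter sequence was at hand for 2 of the 6, *Emilin1* and *Tgfbi*, which were both lower in HSC segments of MARCOHi ROIs. The 250 bases before the start site that RefSeq's promoter entry uses, both on the plus strand, are shown so that a reader can see which short motifs they hold, with every match to a searched motif in capitals. The *Tgfbi* window, chr13:56609336-56609585, ends where the gene begins. The *Emilin1* window, chr5:30913536-30913785, lies inside the gene interval given above, so the start site it precedes is downstream of that interval's first base.
Emilin1: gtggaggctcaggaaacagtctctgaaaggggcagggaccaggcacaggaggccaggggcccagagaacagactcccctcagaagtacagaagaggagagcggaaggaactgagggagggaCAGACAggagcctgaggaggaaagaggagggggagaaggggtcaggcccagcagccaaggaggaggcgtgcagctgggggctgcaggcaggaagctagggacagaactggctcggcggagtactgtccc
Tgfbi: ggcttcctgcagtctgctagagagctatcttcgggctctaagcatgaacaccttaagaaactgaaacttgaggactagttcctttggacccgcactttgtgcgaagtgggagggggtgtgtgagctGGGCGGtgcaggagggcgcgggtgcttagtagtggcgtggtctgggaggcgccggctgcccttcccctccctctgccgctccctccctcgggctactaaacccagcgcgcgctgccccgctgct
Both strands were searched for the AP-1 motif TGANTCA, the GC box GGGCGG, the TATA box TATAAA, the TEAD motif GGAATG, the CCAAT box CCAAT and the SMAD motif CAGACA. The *Emilin1* window held 1 CAGACA, which 17.1% of the 32851 promoter windows of this length hold, and the *Tgfbi* window held 1 GGGCGG, which 32.7% hold. The other motifs had no match in either, and are held by 6.75% (AP-1), 12.4% (TATA box), 12.6% (TEAD) and 33.8% (CCAAT box) of windows. The windows had a GC content of 63.2% and 62.4%.

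On the log2 scale averaged over livers, all 6 genes had their highest level in HSC segments, and 5 of 6 their lowest in Other segments. Some of these gaps did not keep 1 sign over livers, as given by gene below. *Emilin1* had a median of 26.1 normalized counts in HSC segments (range 4.35 to 62.6), 13.8 in MARCO- segments (5.21 to 52.1), 10.7 in MARCO+ segments (2.17 to 21.7) and 6.87 in Other segments (4.27 to 9.85). On the log2(mean + 1) scale its level over 4 livers fell in that order, from 4.80 ± 0.12 (SD) to 4.15 ± 0.30, 3.63 ± 0.22 and 2.96 ± 0.15, and each step had the same sign in 4 of 4 livers. The place of MARCO- segments in this order, and in those of the genes below other than *Tgfbi*, changed when 1 count was subtracted from each value, as given with the tests of the segment types. Within the same ROI, the HSC segment exceeded the Other segment in 40 of 41 ROIs.

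*Tgfbi* was high in both HSC and MARCO- segments and lowest in Other segments. Its median was 34.8 normalized counts in HSC segments (7.45 to 78.2), 38.0 in MARCO- segments (13.0 to 91.3), 18.8 in MARCO+ segments (5.59 to 36.9) and 7.96 in Other segments (5.32 to 14.7). The log2 levels were 5.34 ± 0.13, 5.22 ± 0.33, 4.36 ± 0.14 and 3.23 ± 0.18 in that order (SD, n = 4 livers). HSC and MARCO- segments could not be ordered, since HSC was higher in 2 of 4 livers and in 13 of 23 ROIs that held both, whereas the 2 later steps had the same sign in 4 of 4 livers. *Tgfbi* exceeded the Other segment of the same ROI in 41 of 41 HSC, 24 of 24 MARCO- and 42 of 43 MARCO+ segments.

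*Ccdc80* showed a wide gap between HSC segments and the rest. Its median was 34.8 normalized counts in HSC segments (7.45 to 85.7), 14.7 in MARCO- segments (6.14 to 43.5), 13.8 in MARCO+ segments (3.36 to 27.8) and 8.38 in Other segments (5.18 to 13.4). The log2 levels were 5.31 ± 0.15, 4.35 ± 0.38, 3.86 ± 0.11 and 3.27 ± 0.17. MARCO- exceeded MARCO+ segments in only 3 of 4 livers, and the other neighbours in the order differed with 1 sign in all livers. Within the same ROI, *Ccdc80* was higher in the HSC than in the MARCO+ segment in 37 of 37 ROIs.

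*Abi3bp* and *Sparcl1* were near the count floor outside Other segments. *Abi3bp* had a median of 9.78 normalized counts in HSC segments (1.45 to 20.9), 8.69 in MARCO- segments (3.72 to 17.4), 5.64 in MARCO+ segments (0.899 to 14.9) and 6.02 in Other segments (3.64 to 7.70). It stood at 1 recovered count in 13 of 41 HSC and 19 of 24 MARCO- segments, and neither HSC and MARCO- nor MARCO+ and Other segments could be ordered, with 2 of 4 livers on each side. *Sparcl1* had a median of 13.0 in HSC segments (2.61 to 39.1), 11.0 in MARCO- segments (5.79 to 26.1), 6.52 in MARCO+ segments (1.86 to 17.4) and 6.53 in Other segments (4.29 to 9.00). It was at 1 count in 11 of 41 HSC and 13 of 24 MARCO- segments, and its levels in MARCO+ and Other segments, 2.93 ± 0.095 and 2.91 ± 0.14, could not be ordered.

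*Mmp2* had its highest level in HSC segments and similar levels in MARCO+ and Other segments (3.06 ± 0.094 and 3.10 ± 0.24). Its median was 15.6 normalized counts in HSC segments (3.26 to 78.2), 13.0 in MARCO- segments (5.21 to 26.1), 7.11 in MARCO+ segments (1.74 to 21.7) and 7.32 in Other segments (4.98 to 13.2). The level of HSC segments exceeded that of MARCO- segments in 4 of 4 livers, by 0.59 ± 0.43 on the log2 scale. MARCO- against Other and Other against MARCO+ segments split 3 to 1 over the livers and could not be ordered. In MARCO- segments *Mmp2* was at 1 count in 13 of 24.

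**Figure D1:**
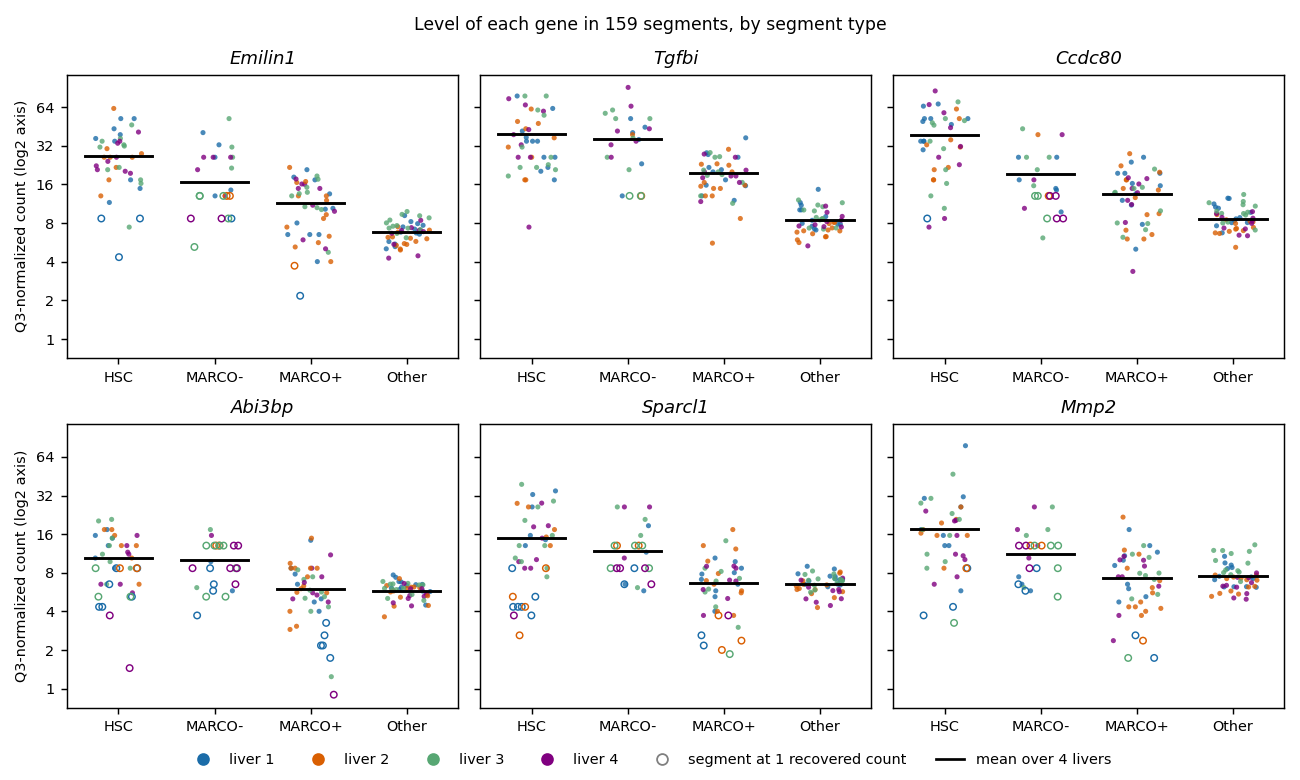
Level of the 6 genes in each of the 159 segments, as Q3-normalized counts on a log2 axis, by segment type. Points are segments coloured by liver, open points are segments in which the gene had 1 recovered count, and bars are means over 4 livers. HSC segments have the highest bar in every panel, *Tgfbi* is nearly as high in MARCO- segments, and open points are frequent in MARCO- segments for *Abi3bp* (19 of 24), *Sparcl1* and *Mmp2* (13 of 24 each).

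The excess in HSC segments over Other segments was 2.11 ± 0.23 (log2, SD over 4 livers) for *Tgfbi*, 2.04 ± 0.19 for *Ccdc80*, 1.84 ± 0.18 for *Emilin1*, 1.11 ± 0.10 for *Mmp2*, 1.09 ± 0.18 for *Sparcl1* and 0.76 ± 0.20 for *Abi3bp*, and was positive in 4 of 4 livers for each. Over all genes, 36.6% were called higher in HSC than in Other segments by limma at an adjusted p below 0.05, 33.8% higher than in MARCO+ and 18.1% higher than in MARCO- segments. Against MARCO+ segments the differences of the 6 ranged from 0.72 ± 0.26 for *Abi3bp* to 1.46 ± 0.13 for *Ccdc80*, and against MARCO- segments from 0.06 ± 0.32 for *Abi3bp* to 0.97 ± 0.49 for *Ccdc80*. After re-centring of segments on their own medians, calls over all genes split 147 higher and 267 lower (222 and 172 as deposited) against Other, 159 and 167 (205 and 111) against MARCO+, and 78 and 229 (110 and 164) against MARCO- segments, and HSC minus MARCO- fell below 0 for *Tgfbi* (-0.04) and *Abi3bp* (-0.06). With 1 count subtracted, HSC minus Other fell to 0.11 for *Abi3bp*, 0.60 for *Sparcl1* and 0.72 for *Mmp2* and stayed between 1.59 and 1.94 for the other 3, and HSC minus MARCO+ fell to 0.47 for *Abi3bp*. HSC minus MARCO- rose at the same time to 2.44 for *Mmp2*, 2.20 for *Emilin1*, 2.06 for *Abi3bp*, 1.99 for *Sparcl1* and 1.73 for *Ccdc80*, and to 0.42 for *Tgfbi*. These contrasts were among those by which the genes were chosen, so nothing is read from their number. A bulk segment cannot tell more cells of a type from more RNA per cell.

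HSC segments of MARCOHi ROIs had lower means of *Tgfbi*, *Ccdc80*, *Emilin1* and *Mmp2* than those of MARCOLo ROIs in each of the 4 livers. For *Tgfbi*, the MARCOHi means of livers 1 to 4 were 27.7, 30.6, 23.3 and 33.0 normalized counts, and the MARCOLo means 44.9, 49.5, 68.2 and 59.0. The classes did not overlap between livers. Over single segments the MARCOHi values ran from 7.45 to 66.6 with a median of 26.1 (n = 25), and the MARCOLo values from 26.1 to 78.2 with a median of 57.5 (n = 16), so that single segments did overlap.

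For *Ccdc80* the means were 35.4, 26.8, 24.9 and 27.9 in MARCOHi ROIs and 52.7, 43.4, 54.8 and 61.5 in MARCOLo ROIs, again without overlap. Single segments ran from 7.45 to 57.9 (median 26.1) and from 31.7 to 85.7 (median 51.2). *Emilin1* had means of 13.8, 27.8, 22.1 and 24.0 in MARCOHi ROIs and 40.1, 28.1, 35.6 and 32.9 in MARCOLo ROIs. The classes lay only just apart for *Emilin1*, with liver 2 at 27.8 and 28.1, and the MARCOHi segments of that liver included the highest *Emilin1* value, 62.6. *Mmp2* had means of 11.0, 16.2, 15.3 and 11.8 against 30.3, 17.2, 27.0 and 18.6, and the MARCOLo segments of liver 1 included the highest *Mmp2* value, 78.2. In MARCOHi ROIs of liver 1, *Emilin1* and *Mmp2* were at 1 recovered count in 3 of 6 segments each.

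*Sparcl1* and *Abi3bp* did not keep 1 direction over livers. *Sparcl1* had means of 15.3, 8.55, 13.5 and 9.88 in MARCOHi ROIs and 12.5, 23.0, 24.6 and 20.5 in MARCOLo ROIs, lower in MARCOHi ROIs in livers 2, 3 and 4 and higher in liver 1. *Abi3bp* had means of 10.5, 12.6, 8.36 and 7.57 against 9.20, 11.7, 16.5 and 9.93, lower in livers 3 and 4 only. Both genes were at 1 recovered count in 3 of 6 HSC segments of each class in liver 1.

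**Figure D2:**
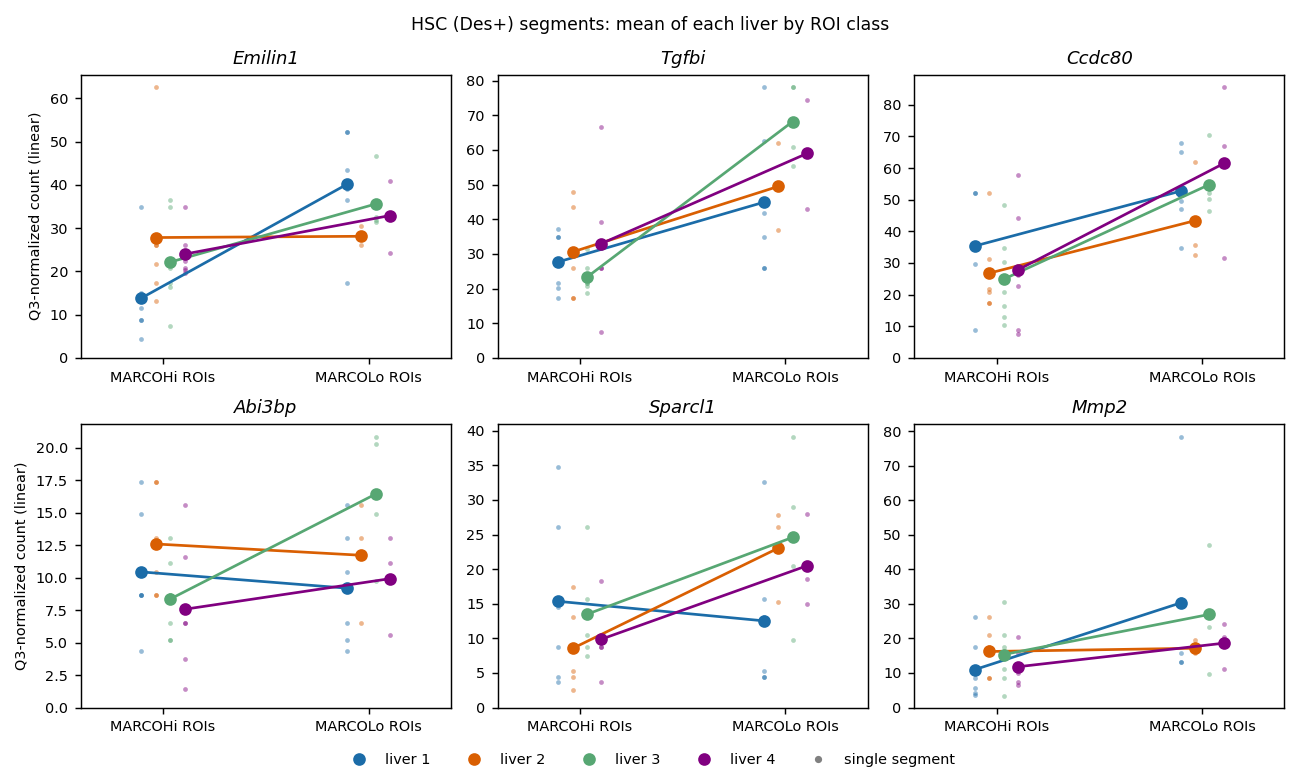
Q3-normalized counts of the 6 genes in HSC segments on linear axes that start at 0 and differ between panels. Small points are segments, large points are liver means, and lines join the 2 ROI classes of a liver. All lines rise from MARCOHi to MARCOLo ROIs for *Tgfbi* and *Ccdc80*, the line of liver 2 is nearly flat for *Emilin1* and *Mmp2*, and lines cross for *Abi3bp* and *Sparcl1*.

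On the log2 scale MARCOHi minus MARCOLo was -0.92 ± 0.40 (SD over 4 livers) for *Tgfbi*, -0.86 ± 0.29 for *Ccdc80*, -0.72 ± 0.69 for *Sparcl1*, -0.71 ± 0.54 for *Mmp2*, -0.65 ± 0.61 for *Emilin1* and -0.25 ± 0.49 for *Abi3bp*. Without liver 1 *Emilin1* was at -0.37 and *Abi3bp* at -0.39, without liver 3 *Abi3bp* was at -0.03, and with 1 count subtracted the 6 ran from -1.19 (*Sparcl1*) to -0.69 (*Abi3bp*). Liver means did not overlap for 4 of the 6, and likewise did not overlap for 4.94% of all genes in that direction. Limma called 3.29% of all genes lower in MARCOHi ROIs at an adjusted p below 0.05. In the livers labelled treated CCl4, where 1.81% of genes were called lower, the difference was -1.09 for *Tgfbi*, -1.08 for *Mmp2*, -1.07 for *Emilin1*, -0.84 for *Ccdc80*, -0.37 for *Abi3bp* and -0.27 for *Sparcl1*. In the livers labelled control, where 0% of genes were called (0 of 607 by limma, 64 at an unadjusted p below 0.05), the same genes in the same order were at -0.75, -0.35, -0.23, -0.89, -0.13 and -1.16. With segments re-centred, the median of all genes in the latter pair moved from -0.05 to 0.21 and *Emilin1* (0.05) and *Abi3bp* (0.10) turned above 0, and the calls in the former went from 3 higher and 11 lower to 1 and 9. The difference between the pairs was not tested.

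The summed stellate cell markers moved with the ROI class as well. The summed value of the 8 markers in HSC segments was 245.0 to 326.2 over the livers in MARCOHi ROIs and 366.8 to 462.2 in MARCOLo ROIs. A linear sum gives most weight to the highest genes, here *Ecm1* and *Reln* (log2 levels of 6.89 and 5.70 in HSC segments). Both were called lower in MARCOHi ROIs (-0.79 and -1.04) and are counted again below as glycoproteins. The sum is thus not separate from the matrix genes, and the other markers are not given by ROI class. Depth differed too, with a median of 3089 recovered counts in HSC segments of MARCOHi and 4602.5 in those of MARCOLo ROIs. The 2 measured smooth muscle markers, *Tagln* and *Myl9*, summed to 31.0 to 76.3 in MARCOHi and 19.3 to 34.1 in MARCOLo ROIs, and the 2 measured portal fibroblast markers, *Eln* and *Dpt*, to 20.0 to 30.5 and 19.4 to 34.3. As the values had a floor of 1 recovered count, the presence of a marker in every segment cannot be read from them. Their part in the differences of the 6 genes was not tested.

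Whether the same direction held outside HSC segments was tested in MARCO+ and Other segments. Their differences between ROI classes were not among the values that led to the choice. Their levels entered the excess in HSC segments, however, and earlier results of the same data were known. In MARCO+ segments all 6 estimates were below 0, as were those of 54.5% of all genes. Limma called 0 of 6 (3 at an unadjusted p below 0.05), where 0.988% of genes were called (2 higher and 4 lower, or 2 and 2 with segments re-centred). *Ccdc80* came closest, with means of 11.1, 9.95, 10.2 and 12.0 normalized counts in MARCOHi ROIs of livers 1 to 4 and 19.2, 18.6, 14.3 and 15.5 in MARCOLo ROIs. These means did not overlap, which was so for 2.8% of genes in that direction and for no other member. The difference was -0.59 ± 0.13 (SE; limma adjusted p = 0.159), lower in 4 of 4 livers, and it was called by edgeR (-0.70, adjusted p = 0.00247), which called 2.64% of genes lower, and by a linear mixed model on single segments (-0.70, adjusted p = 0.00373), which called 3.13% lower. That model takes segments as its units and lets only the level of a liver vary. Its p for the ROI class therefore does not rest on the liver as the replicate. The summed stellate cell markers of these segments were 111.3 to 127.8 in MARCOHi and 128.6 to 183.0 in MARCOLo ROIs, and their part was not tested.

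The other members differed less in MARCO+ segments. *Abi3bp* was at -0.38 ± 0.12 (SE, adjusted p = 0.296) and *Emilin1* at -0.36 ± 0.15 (adjusted p = 0.427), both lower in 4 of 4 livers. *Sparcl1* was at -0.33 ± 0.15 (adjusted p = 0.450) and *Tgfbi* at -0.16 ± 0.13 (adjusted p = 0.663), both lower in 3 of 4. *Mmp2*, at -0.08 ± 0.19 with a 95% interval from -0.53 to 0.36, was lower in 2 of 4 livers.

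In Other segments, the most deeply counted type, 0 of 6 members were called by limma (4 at an unadjusted p below 0.05) and 1.65% of genes were (2 higher and 8 lower, or 10 and 16 with segments re-centred). All differences of the 6 were small and below 0, as were those of 53.5% of all genes. *Tgfbi* was at -0.21 ± 0.07 (SE, adjusted p = 0.193), *Emilin1* at -0.18 ± 0.05 (adjusted p = 0.145), *Mmp2* at -0.17 ± 0.06 (adjusted p = 0.189) and *Ccdc80* at -0.15 ± 0.05 (adjusted p = 0.203). *Emilin1* and *Mmp2* were lower in 4 of 4 livers, and *Tgfbi* and *Ccdc80* in 3 of 4. *Abi3bp* (95% interval from -0.13 to 0.07) and *Sparcl1* (from -0.11 to 0.07) lay close to 0. In no member did the liver means of the classes stand apart, and 0.494% of genes did so in that direction. The linear mixed model, with single segments as its units, called *Tgfbi*, *Emilin1* and *Ccdc80* lower, and 6.92% of all genes. Without liver 2 limma called *Tgfbi* (-0.30, adjusted p = 0.0311) and 2.14% of genes lower.

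**Figure D3:**
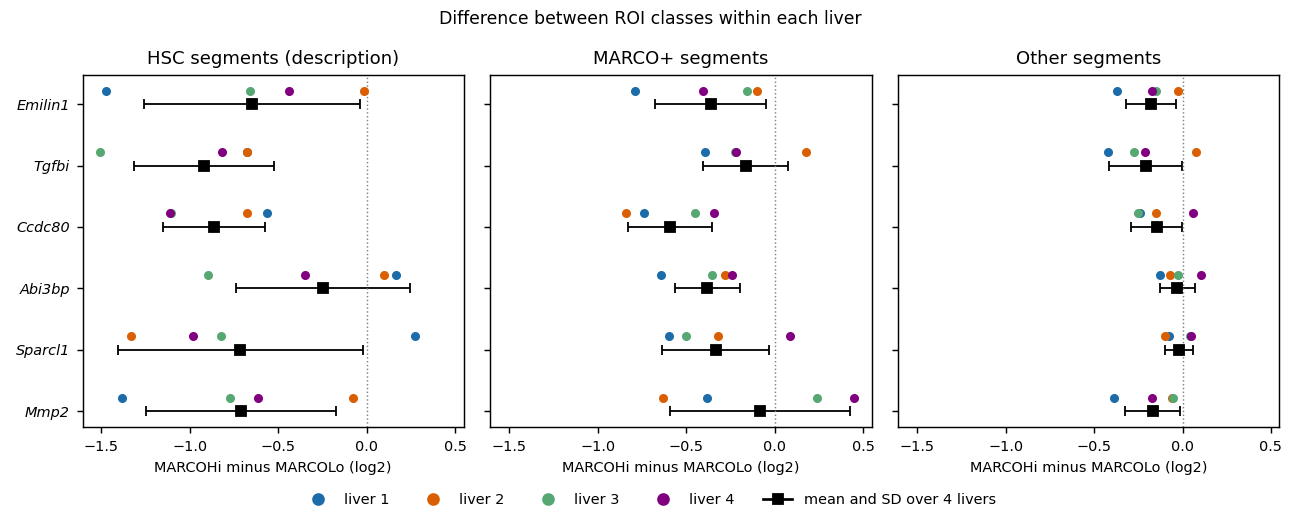
MARCOHi minus MARCOLo (log2) for the 6 genes in HSC, MARCO+ and Other segments. Coloured points are livers, and squares with bars are the mean and SD over 4 livers. In HSC segments the means run from -0.92 to -0.25, in MARCO+ segments from -0.59 to -0.08 and in Other segments from -0.21 to -0.02.

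The ROI classes were not tested in MARCO- segments, of which liver 2 had none in MARCOHi ROIs and liver 1 had 1. Over 3 livers *Emilin1* was lower in MARCOHi ROIs in 3 of 3 (-0.66 ± 0.71, SD) and *Mmp2* higher in 3 of 3 (0.50 ± 0.20), and the other 4 members changed sign between livers. In 11 MARCO- segments of MARCOHi ROIs the median count of *Emilin1*, *Ccdc80*, *Abi3bp*, *Sparcl1* and *Mmp2* was 1, against 4, 3, 1, 2 and 2 in the 13 of MARCOLo ROIs.

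Between segment types other than HSC, *Tgfbi*, *Emilin1* and *Ccdc80* were higher in MARCO+ than in Other segments and the remaining 3 were not. *Tgfbi* was higher by 1.13 ± 0.14 (log2, SE; limma adjusted p = 7.84e-07), a factor of 2.18, *Emilin1* by 0.67 ± 0.14 (adjusted p = 0.000451) and *Ccdc80* by 0.58 ± 0.16 (adjusted p = 0.00613), each in 4 of 4 livers. These 3 of 6 stand against 19.1% of all genes called higher. The levels of MARCO+ and Other segments had entered the excess in HSC segments by which the genes were chosen. *Abi3bp* (0.03 ± 0.15), *Sparcl1* (0.02 ± 0.14) and *Mmp2* (-0.03 ± 0.16) were not called, with 95% intervals within -0.37 to 0.35. With segments re-centred, the median of all genes moved from -0.05 to -0.22 and *Abi3bp* and *Sparcl1* fell below 0 (-0.13 each), and the split of calls over all genes went from 116 higher and 125 lower to 84 and 195. *Tgfbi* was the 1 member called once 1 count was subtracted from every value (1.01, adjusted p = 0.0143), where 6.92% of genes were called higher.

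In MARCO- against Other segments all 6 were called higher, as were 49.9% of all genes. Liver 2 entered with its MARCO- segments of MARCOLo ROIs alone. The levels of MARCO-, MARCO+ and Other segments had all entered the excess in HSC segments by which the genes were chosen. Nothing is therefore read from the number of members called in this contrast or the next. The differences were 1.99 ± 0.14 (SE) for *Tgfbi*, 1.19 ± 0.14 for *Emilin1*, 1.07 ± 0.16 for *Ccdc80*, 0.78 ± 0.14 for *Sparcl1*, 0.70 ± 0.15 for *Abi3bp* and 0.52 ± 0.16 for *Mmp2*, with limma adjusted p from 5.51e-11 to 0.00663. The median of all genes was itself at 0.35, or at 0.18 after re-centring, which turned the split of calls from 303 higher and 141 lower to 233 and 173. *Mmp2* was called over Other segments although liver 1 was at -0.02, with an SD over livers of 0.43. MARCO+ segments were in turn lower than MARCO- segments for all 6 on average, by 0.49 to 0.87, and 35.6% of all genes were called lower. *Tgfbi* had the largest of these differences (-0.87 ± 0.14, limma adjusted p = 0.000115) and *Ccdc80* the smallest (-0.49 ± 0.16, adjusted p = 0.0189). In 1 liver the sign was the other way for *Ccdc80* (0.04, liver 4) and for *Mmp2* (0.08, liver 1).

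These results for MARCO- segments changed with the count floor, least for *Tgfbi*. With 1 count subtracted, MARCO- minus Other became -1.95 for *Abi3bp*, -1.72 for *Mmp2*, -1.39 for *Sparcl1* (all called lower) and -0.61 for *Emilin1*, while *Ccdc80* was at 0.15 and *Tgfbi* still at 1.53 (adjusted p = 0.000141), and 6.1% of all genes were called higher and 71.3% lower. MARCO+ minus MARCO- likewise became 1.59 for *Abi3bp*, 1.36 for *Mmp2*, 1.07 for *Emilin1*, 1.06 for *Sparcl1* and 0.26 for *Ccdc80*, and stayed below 0 for *Tgfbi* (-0.52, adjusted p = 0.0744). Over all genes that contrast went from 58 higher and 216 lower to 392 (64.6% of genes) and 1. With edgeR on the recovered counts the split was 119 higher and 21 lower, and for MARCO- against Other segments 143 and 181. Whether a deposited count of 1 stands for 0 is not stated in the sources used here. No direction is therefore given for the genes other than *Tgfbi* between MARCO- and Other segments, nor between MARCO- and MARCO+ segments. Over Other segments *Ccdc80* kept its sign but was no longer called. It stood at 1 count in 8 of 24 MARCO- segments. *Abi3bp* and *Mmp2* were also not called in MARCO- over Other segments by edgeR or DESeq2.

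**Figure D4:**
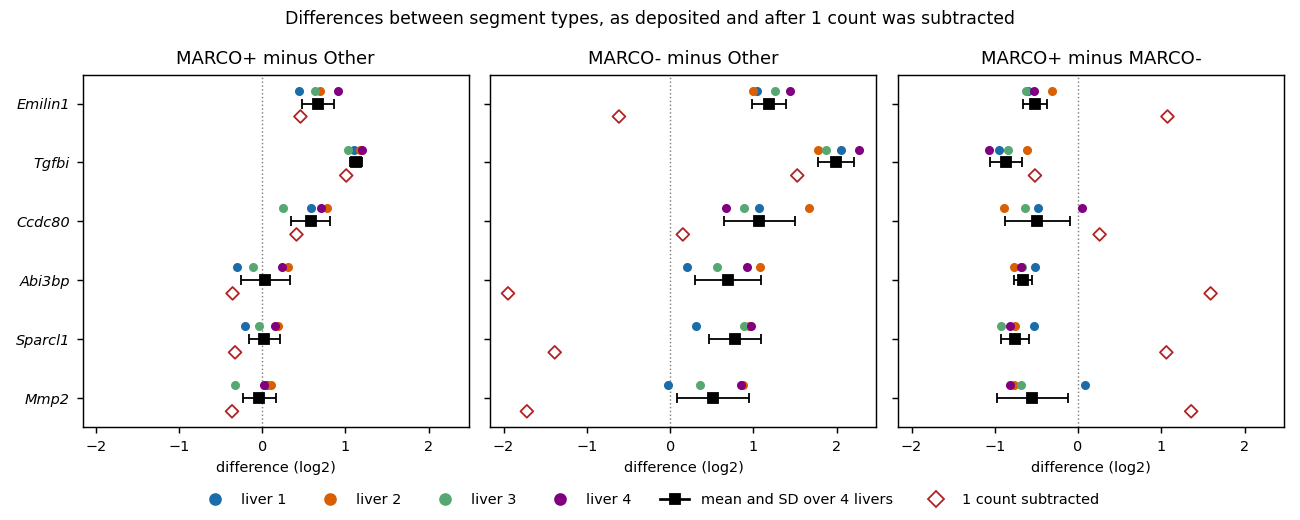
Differences between segment types (log2) for the 6 genes. Coloured points are livers, squares with bars are the mean and SD over 4 livers on the values as deposited, and open diamonds are the same contrast after 1 recovered count was subtracted from each value. Diamonds cross 0 for *Emilin1*, *Abi3bp*, *Sparcl1* and *Mmp2* in MARCO- minus Other and for all but *Tgfbi* in MARCO+ minus MARCO-. In MARCO+ minus Other they cross 0 for *Abi3bp* and *Sparcl1*, whose squares lie close to 0.

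The label of the liver did not separate the genes past the threshold. Between livers labelled treated CCl4 and control, 0 of 6 were called by limma in HSC segments, where 0% of genes were (37 at an unadjusted p below 0.05, none of them a member), and 0 of 6 in MARCO+ segments, where 0.659% were (0 members at an unadjusted p below 0.05). In Other segments 0 of 6 were called and 0% of genes (140 unadjusted, 3 of them members), although all 6 were higher in both livers labelled treated CCl4 than in either labelled control, as were 49.8% of all genes. DESeq2 called *Mmp2* there (6.26% of genes higher) and the linear mixed model *Ccdc80* (5.93% higher). The differences ran from 0.15 ± 0.08 (SE) for *Abi3bp* to 0.34 ± 0.12 for *Mmp2* (adjusted p = 0.206). The median of all genes in that contrast was 0.11, and -0.02 after re-centring, which brought the median of the 6 from 0.23 to 0.11. Each label had 2 livers.

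The other measured matrix genes were counted beside the 6, from lists of elastic fibre genes (10 measured besides *Emilin1*), adhesive and matricellular glycoproteins (16 besides the members), metalloproteinases with their inhibitors (6 besides *Mmp2*) and collagen chains (11). In HSC segments of MARCOHi against MARCOLo ROIs the collagen chains had a median of -0.75 and 6 of 11 were called lower, led by *Col3a1* (-1.17 ± 0.24, SE) and *Col6a2* (-0.94 ± 0.21). The glycoproteins had a median of -0.27, with 2 of 16 called lower (*Reln*, -1.04, and *Ecm1*, -0.79) and 1 higher. The elastic fibre genes (median 0.06, 1 of 10 called lower, *Efemp1* at -0.85) and the metalloproteinase list (median -0.09, 0 of 6 called) lay near the median of all genes, 0.02. The 6 members had a median of -0.71. The lists were drawn up with earlier results known and are no independent evidence of direction.

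In MARCO+ segments 1 collagen chain was called lower in MARCOHi ROIs, *Col3a1* (-0.86 ± 0.13, limma adjusted p = 0.0367), and none of the other lists had a call. In Other segments *Col3a1* (-0.43 ± 0.06, adjusted p = 0.0273) and *Col1a1* (-0.38 ± 0.07, adjusted p = 0.0438), the chains of fibrillar collagens III and I, were called lower, and all 11 chains had estimates below 0, as did 53.5% of all genes. *Mmp14*, the surface activator of pro-MMP2, was the 1 listed gene called between the labels, in MARCO+ segments (1.43 ± 0.18, adjusted p = 0.00239, higher in livers labelled treated CCl4). In MARCO+ over Other segments *Timp2* (1.23 ± 0.17, adjusted p = 1.62e-06) and *Mmp14* (0.83 ± 0.22, adjusted p = 0.00339) were called higher, while *Fn1*, the fibronectin gene, was called lower (-1.43 ± 0.16, adjusted p = 6.31e-08) and *Ecm1* higher (1.44 ± 0.20, adjusted p = 1.80e-06).

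The genes whose levels followed each member most closely were found over the 31 means of liver, ROI class and segment type. They were *Dcn* (Pearson r = 0.901), *Lrat* (0.887) and *Col5a1* (0.886) for *Emilin1*, *Tmsb10* (0.932), *Bgn* (0.896) and *Dcn* (0.865) for *Tgfbi*, and *Col3a1* (0.955), *Abcc9* (0.946) and *Pam* (0.930) for *Ccdc80*. For *Abi3bp* they were *Ednra* (0.888), *Fbn1* (0.868) and *Itga8* (0.867), for *Sparcl1* *Serpinh1* (0.906), *Gdf10* (0.896) and *Efemp1* (0.893), and for *Mmp2* *Col6a3* (0.905), *Col1a1* (0.898) and *Hand2* (0.894). The means share segment types, livers and depth, and the values are a description.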

How the data were processed

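Spatial transcriptomes of 4 mouse livers were measured on fixed sections with a whole-transcriptome probe panel, and reads were demultiplexed with bcl2fastq (2.20.0.422, per the labels). Per the study's methods, reads were deduplicated by molecular identifier and segments were filtered against negative control probes, and genes were reduced to those of HSCs. The authors deposited Q3-normalized counts, a signal per gene and segment, for 607 genes in 159 segments. Every segment had the same 75th percentile (26.074). Dividing the values of a segment by the worth of 1 count made 96513 of 96513 whole (relative tolerance 1e-06); these are the recovered counts. The depth limits single segments: intervals cover the spread between livers only, pooled over the 4 segment types where types were compared.

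Segment type, ROI class, liver and label were taken from titles and descriptions. For 1 ROI of liver 4 the class stood only in the titles. The linear mean over segments of a liver, ROI class and segment type, plus a pseudocount of 1, was log2-transformed. limma (3.58.1) was fitted over all 607 genes, with liver as a block where types or classes of the same animals were compared, and without it between labels. Where types were compared, all 4 types, HSC included, entered 1 fit, and each gene had 1 spread shared by all type contrasts. The SE and p of a type contrast therefore do not measure the spread of the compared types alone, and depth differed between types. Adjusted p is Benjamini-Hochberg's, with a threshold of 0.05. Segments of a number come from the same liver, which is the source of the pairing. Alternatives used a pseudocount of 5, omission of genes with low means, means of log2 values, re-centring on segment medians, subtraction of 1 count, edgeR (4.0.16), DESeq2 (1.42.0), a linear mixed model (lmerTest 3.1.3), no block, and omission of that ROI or of each liver. The fits of the ROI class contrasts were tried on simulated counts that held no spread between livers, so the trial says nothing about that spread. R was 4.3.3 and pandas, numpy and matplotlib were used in Python.

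The 6 genes, the gene lists and the marker lists were chosen with earlier results of these data known. Named besides the 6 were the 3 genes with the highest correlation to each, up to 2 called genes per list with the largest difference, and markers. Stellate (8 of 8), portal fibroblast (2 of 8), smooth muscle (2 of 5) and macrophage (1 of 11) markers were measured, and mesothelial, endothelial, hepatocyte and cholangiocyte lists had 0.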

Additional observations from a re-analysis of the deposited data

Results flagged for a closer look

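Single segments stood apart from the others of their liver, ROI class and segment type in 10 of the 144 groups tested on the log2 scale, and chance alone flags about 1 in 20 groups. Of the 10 segments, 4 had a count of 1 or 2 for the gene. The MARCO- segments of MARCOHi ROIs in liver 3 had 1 segment with *Emilin1* at 52.1 normalized counts (4 recovered counts, the next at 13.0 or 1 count) and 1 with *Abi3bp* at 17.4 (2 counts). In liver 4, MARCO+ segments of MARCOHi ROIs had 1 segment with *Abi3bp* at 0.899 (1 count) and 1 with *Mmp2* at 2.37 (2 counts).

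In HSC segments, *Ccdc80* was at 8.69 (1 count) in 1 of 6 MARCOHi segments of liver 1, with the next at 29.8. *Emilin1* was at 17.4 (4 counts) in 1 of 6 MARCOLo segments of liver 1, with the next at 36.5, and at 46.6 (25 counts) in 1 of 4 MARCOLo segments of liver 3, with the next at 32.6. In Other segments, *Ccdc80* was high at 12.4 (74 counts) in a MARCOHi segment of liver 1 and low at 5.18 (33 counts) in one of liver 2, and *Sparcl1* was low at 5.87 (122 counts) in a MARCOLo segment of liver 3.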

How the results depend on the processing

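Most of the members' results kept their direction and call, and those in MARCO- segments did not. With 1 count subtracted, the members called became 1 for MARCO+ over Other segments, 4 (1 higher, 3 lower) in place of 6 for MARCO- over Other, and 3 (all higher) in place of 6 lower for MARCO+ over MARCO-. The values that turned were -0.61 (*Emilin1*), -1.95 (*Abi3bp*), -1.39 (*Sparcl1*) and -1.72 (*Mmp2*) for MARCO- minus Other, and 1.07 (*Emilin1*), 0.26 (*Ccdc80*), 1.59 (*Abi3bp*), 1.06 (*Sparcl1*) and 1.36 (*Mmp2*) for MARCO+ minus MARCO-. In the latter contrast edgeR called 1 member (*Tgfbi*) and DESeq2 2. Leaving out genes with low means left 3 members, all 3 called in both MARCO- contrasts, beside 279 of all genes for MARCO- over Other. Leaving out a liver gave 5 to 6 and 4 to 5 members called there. Over all genes, calls in these contrasts ranged over the alternatives from 279 to 470 and from 89 to 393. Nothing is therefore read from the number of members called.

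Between ROI classes, edgeR and the linear mixed model (segments as units) each called 1 member (*Ccdc80*) in MARCO+ segments, beside 31 and 33 of all genes, and the mixed model called 3 in Other segments, beside 83, where leaving out a liver gave 0 to 1. Between labels in Other segments, DESeq2 called 1 (*Mmp2*) beside 114 of all genes (38 higher), and the mixed model 1 (*Ccdc80*) beside 45 (36 higher). No replicate block, in place of the liver block, left the members called at 0, 0, 3, 6 and 6 in the 5 contrasts that have one. Over all genes, that setting took the calls between ROI classes in Other segments from 10 to 0. Calls over all genes are given below as ranges over the alternatives, and nothing is read from these counts of members. Near 0, signs turned without a call. For MARCO+ minus Other, *Abi3bp* went from 0.03 to -0.058 (mean of log2 values), -0.13 (re-centred), -0.36 (1 count subtracted), -0.0025 (edgeR), -0.036 (DESeq2), -0.090 (mixed model) and, with a liver left out, -0.059 to 0.15. *Sparcl1* went from 0.02 to -0.083 (mean of log2 values), -0.13 (re-centred), -0.33 (1 count subtracted), -0.083 (mixed model) and -0.031 to 0.10 with a liver left out. *Mmp2* ranged from -0.081 to 0.063 with a liver left out. For MARCOHi minus MARCOLo with a liver left out, *Mmp2* ranged from -0.26 to 0.10 in MARCO+ segments, and *Abi3bp* from -0.074 to 0.0026 and *Sparcl1* from -0.044 to 0.0062 in Other segments.

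The median of the 6 for MARCOHi minus MARCOLo in HSC segments was -0.71. It was -1.08 with 1 count subtracted, -0.58 with a pseudocount of 5, -0.62 re-centred and -0.89 to -0.69 with a liver left out. The median over HSC minus the other types was 1.03, against 0.83 (pseudocount of 5), 1.17 (low means left out, 3 members), 0.96 (mean of log2 values), 0.80 (re-centred), 1.30 (1 count subtracted), 1.13 (edgeR), 1.13 (DESeq2), 0.86 (mixed model) and 0.99 to 1.09 with a liver left out. Over all genes, calls ranged over the alternatives from 1 to 33 (main 6) and 0 to 83 (10) between ROI classes in MARCO+ and Other segments, 76 to 389 (241), 279 to 470 (444) and 89 to 393 (274) between types in the order above, and 2 to 29 (4), 0 to 114 (0) and 0 to 1 (0) between labels in MARCO+, Other and HSC segments. edgeR on the recovered counts called 31, 30, 389, 324, 140, 13, 0 and 1 genes in these 8 contrasts, in the same order. The causes were not tested.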

Other observations

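Correlations between the 6 genes were lower over single HSC segments than over the means. The means span all segment types and average over segments, so these correlations are not like for like. Over the 31 means Pearson's r between members ran from 0.679 (*Tgfbi* and *Abi3bp*) to 0.851 (*Emilin1* and *Tgfbi*). Over the 41 HSC segments, which share depth and liver, it ran from 0.193 (*Abi3bp* and *Mmp2*) to 0.577 (*Tgfbi* and *Ccdc80*). Across the same segments the log2 level of *Tgfbi* had r = 0.374 with the log2 total count, and the other members had r from -0.0029 (*Mmp2*) to 0.135 (*Emilin1*).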
